A study of Mus musculus with 23 samples.

Results

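Lung tumours in which Cre had deleted Lkb1 were compared with lung tumours in which Lkb1 was intact. Both had Cas9 and were started by the same set of barcoded guide vectors. The question was whether what a guide vector did to tumour growth depended on Lkb1 being present. Mice were chosen by the genotype in their labels and by holding at least 20 tumours with inert vectors. Of 18 labelled mice of the genotypes compared 17 met this, among 23 mice in the series. The Lkb1-deleted group (KTL_Cas9, 7 of 8 mice) was Lkb1flox/flox, with the reporter R26LSL-Tomato and the nuclease allele H11LSL-Cas9. The Lkb1-intact group (KT_Cas9, 10 of 10 mice) had the same Tomato and Cas9 alleles without floxed Lkb1. A background group (KT, 4 of 5 mice) had neither floxed Lkb1 nor Cas9, so its guides could not act. All mice were of a mixed BL6/129 strain and were analysed 4 months into tumour growth, and all of them, controls included, carried the Tomato reporter. The labels give no age, sex, virus dose or number of litters. The samples are genomic DNA of whole tumour-bearing lungs, so neither loss of Lkb1 protein nor cutting by any guide was measured.

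Lkb1 (Stk11) is a serine/threonine kinase and tumour suppressor that is often lost in lung adenocarcinoma. It activates AMPK and a family of AMPK-related kinases, among them the salt-inducible kinases (Sik), the Nuak and Mark kinases and Snrk. In the barcoding method (Tuba-seq) each lentivirus carries Cre, 1 or more guide RNAs, an identifier for those guides and a random barcode, so that reads per barcode measure the size of 1 clonal tumour.

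The pool held 24 targeting vectors and 2 inert ones. A vector was dual, with mouse (mU6) and human (hU6) U6 promoters, or triple, with a bovine (bU6) promoter added. Of the 24, 10 carried 1 of 2 Lkb1 guides at 1 of 5 promoter positions, 5 targeted 2 or more Sik genes, 4 targeted Sik1 or Sik3 alone, and 5 targeted other AMPK-related kinases. Vectors of a class share guides, so they are not independent of each other. The identifiers shown are those of the vectors on which the results turn most, an inert vector included. They are bases read by sequencing to name the guides, not the guides themselves.
Neo1/NT (inert): AATCCGGT
dual hU6-Lkb1 guide 1: ATAACGCC
dual mU6-Lkb1 guide 1: CTAGGAGT
triple hU6-Lkb1 guide 1: ACACTCAC
Sik1 guide 2/Sik3 guide 1: TGTATCGC
Sik1/Sik2/Sik3: CATGGTAG
Mark2/Mark3/Mark4: GATGAGAG
Nuak1/Nuak2: GAGAACTC

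The largest tumour of each KTL_Cas9 mouse shows what a single measured unit is. Its barcode has 30 bases, of which those in capitals are random and those in lower case are fixed spacers, and 100% of barcodes had these spacers. All but 1 of these 7 tumours carried a Sik multi-gene vector, and the exception, in mouse 3, carried Sik3 guide 2.
mouse 2, Sik1 guide 2/Sik3 guide 1: gcGTGGTtaGATGAgcGTGACtaTCGCGgc
mouse 3, Sik3 guide 2: gcAACACtaCCACCgcTCCCGtaCCCTGgc
mouse 4, Sik1 guide 1/Sik3 guide 2: gcCCGACtaTCTGCgcCCCGCtaTCGCAgc
mouse 5, Sik1 guide 1/Sik3 guide 2: gcTCCCTtaGCTCCgcTTCGTtaGGTCGgc
mouse 6, Sik1 guide 2/Sik3 guide 2: gcAATGCtaCTTCAgcGATATtaTAGCGgc
mouse 7, Sik1/Sik2/Sik3: gcAGCTGtaCCTTTgcTTTACtaTAGGGgc
mouse 8, Sik1 guide 2/Sik3 guide 1: gcTGAGGtaAGAAGgcTTAGAtaAATTGgc
These tumours held 3625270 (mouse 3) to 13097700 (mouse 4) estimated cells, and each made up 2.21% (mouse 5) to 9.59% (mouse 8) of all tumour cells of its mouse. In KT_Cas9 mice the largest tumour carried a Sik multi-gene vector in 6 of 10 mice, an Lkb1 vector in 2 (mice 2 and 3), Sik1 guide 1 in mouse 7 and dual Ampk1/Ampk2 in mouse 6.

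Each barcode estimated at 500 cells or more and tied to a named vector was counted as a tumour, and the mouse was the replicate. Reads on named vectors ran from 2181575 to 8547188 in KTL_Cas9 mice and from 92713 to 4516887 in KT_Cas9 mice, and the floor stood for 6.16 to 51.7 and 3.76 to 12.01 reads. KTL_Cas9 mice had 61 to 321 inert tumours (median 95) and KT_Cas9 mice 125 to 4370. All vectors together gave 879 to 4522 and 2013 to 56334 tumours per mouse, and the SD of a vector's size effect between mice was 0.18 to 2.46 in KTL_Cas9 and 0.12 to 0.71 in KT_Cas9 mice. KTL_Cas9 mouse 1, with 17 tumours and 0 inert ones, was left out. KT_Cas9 mice 2 and 5 were the shallowest, at 92713 and 218542 reads, and mouse 2 stood apart from its group in tumour number for 9 vectors. The mouse names of each genotype share 1 prefix, so genotype cannot be told apart from any colony or batch that the prefix stands for, nor from virus dose.

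Tumours of Lkb1-deleted mice were far larger than those of Lkb1-intact mice, also where the latter carried Lkb1 guides. Inert tumours of KTL_Cas9 mice had log-normal mean sizes of 19495 to 103239 cells per mouse (median 34618), and those of KT_Cas9 mice 926 to 1845 cells (median 1365). The groups did not overlap, and their geometric means, 38669 and 1307 cells, differed 29.6-fold (exact permutation p = 5.14e-05, the smallest that 19448 splits of 7 and 10 mice can give, n = 7 and 10). The size of this gap depended on the summary: it was 4.89 on the log2 scale of log-normal means, 2.55 for median sizes (geometric means of 4711 and 804 cells), and 1.33 for log-normal means above a floor of 10000 cells. Tumours with Lkb1 vectors in KT_Cas9 mice had a geometric mean of 2580 cells (1269 to 4646 per mouse), which was 1.97-fold that of inert tumours of the same genotype. Inert tumours of KTL_Cas9 mice were still 14.99-fold larger than these. In KTL_Cas9 mice the Lkb1 vectors gave 40329 cells, 1.04-fold the inert value. The Sik multi-gene vectors gave 135164 cells there (37510 to 403717 per mouse). The order of Lkb1 vectors in KT_Cas9 and inert tumours in KTL_Cas9 mice turned at a floor of 10000 cells. Lkb1 vectors of the 4 KT_Cas9 mice left were then on average 1.74 (log2) above inert tumours of the same mouse. That is more than the gap of 1.33 between inert tumours of the genotypes.

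**Figure D1:**
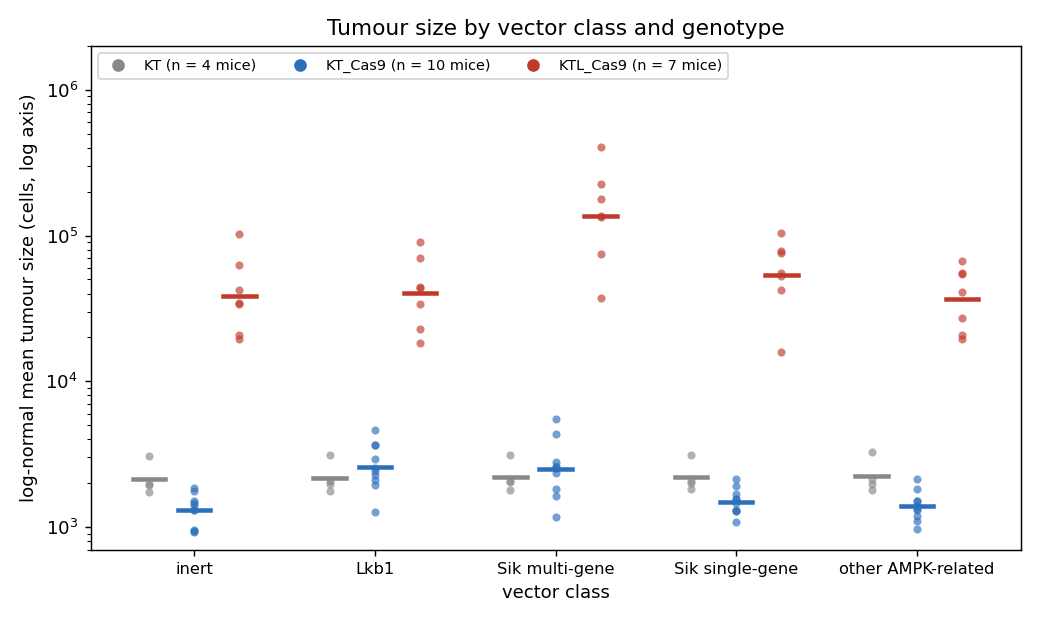
Log-normal mean tumour size in cells (log axis) by vector class, with 1 point per mouse and a bar at the geometric mean of each genotype (KT n = 4, KT_Cas9 n = 10, KTL_Cas9 n = 7). Every KTL_Cas9 mouse lies above every KT_Cas9 mouse in all 5 classes, and within KTL_Cas9 the Sik multi-gene vectors are highest at 135164 cells against 38669 for inert.

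To compare vectors between the genotypes, the size of a vector's tumours was taken relative to inert tumours of the same mouse, as a log2 ratio of log-normal means (the size effect, 0 for no difference from inert). Of the 24 vectors, 8 had a lower size effect in KTL_Cas9 than in KT_Cas9 mice (33.3% of those tested) and 1 a higher one (4.17%). The 8 were 7 of the 10 Lkb1 vectors and Mark2/Mark3/Mark4, and the 1 was Sik1 guide 2/Sik3 guide 1. Over all 24 the median difference was -0.18, with 14 below 0, and 13 had an unadjusted p under 0.05. The groups did not overlap for 3 vectors, all against Lkb1. The tests were two-sided exact permutations of mouse labels with Benjamini-Hochberg adjustment over the 24 vectors.

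Tumours with Lkb1 guides were on average larger than inert ones in 10 of 10 KT_Cas9 mice and in 3 of 7 KTL_Cas9 mice, whose Lkb1 was floxed. The mean size effect of the 10 vectors was -0.53, 0.05, -0.17, 0.11, -0.12, -0.04 and 0.11 in KTL_Cas9 mice 2 to 8. It was 0.36 at the lowest, 1.03 at the median and 1.46 at the highest of the 10 KT_Cas9 mice. Every KTL_Cas9 mouse thus lay below every KT_Cas9 mouse. The means were -0.09 ± 0.23 (SD, n = 7) and 0.93 ± 0.39 (SD, n = 10), a difference of -1.01 ± 0.15 SE (exact permutation adjusted p = 0.00123 over 16 class tests). In KT mice, without Cas9, the same mean was 0.04. All 10 vectors had a difference below 0, with a median of -0.90 against -0.18 over the 24.

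Taken singly, several Lkb1 vectors that ranked high in KT_Cas9 mice ranked low in KTL_Cas9 mice. Dual hU6-Lkb1 guide 1 ranked 1 of 24 in KT_Cas9 mice, at 0.58 to 2.76 (median 1.54), and 19 in KTL_Cas9 mice, at -1.40 to 0.55 (median -0.08). These ranges do not meet, and the difference was -1.65 ± 0.32 SE (exact permutation adjusted p = 0.000617). Triple hU6-Lkb1 guide 1 ranked 3 and 21, with -2.30 to 0.43 in KTL_Cas9 against 0.28 to 2.25 in KT_Cas9 mice, and the ranges share a narrow band. Its difference of -1.94 ± 0.41 SE was the most negative of the 24 (exact permutation adjusted p = 0.00185). Triple bU6-Lkb1 guide 1 went from 0.68 ± 0.51 (SD) in KT_Cas9 to -0.94 ± 0.70 (SD) in KTL_Cas9 mice, where 6 of 7 mice were below 0 and it ranked last of the 24. Dual mU6-Lkb1 guide 1 was the one Lkb1 vector above inert in every KTL_Cas9 mouse. Its values there were 0.36, 0.48, 0.66, 0.44, 0.47, 0.10 and 0.60 in mice 2 to 8, all above 0 and with the smallest spread of any vector (SD 0.18). They still lay below all 10 KT_Cas9 mice (0.68 to 2.07), with a difference of -0.98 ± 0.20 SE (exact permutation adjusted p = 0.00432). On median size the difference was reversed and passed as higher (0.69, exact permutation adjusted p = 0.00309), and at a floor 3 times lower it was 0.41. This vector was 0.09 in KT mice.

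The guide 2 vectors had smaller effects in KT_Cas9 mice on average, and a smaller difference than guide 1 at each of the 5 positions. Dual hU6-Lkb1 guide 2 ran from -0.86 to 0.05 in KTL_Cas9 and from 0.21 to 1.19 in KT_Cas9 mice, again with no overlap (difference -1.16). The dual mU6 (-0.82) and triple hU6 (-0.78) vectors of this guide also passed, with overlapping mice. On median size dual hU6-Lkb1 guide 1 and dual mU6-Lkb1 guide 2 were 0.23 and 0.19, turned in sign and not called. The 3 Lkb1 vectors that did not pass were triple bU6 guide 2 (-0.49 ± 0.43 SE), triple mU6 guide 1 (-0.58 ± 0.40 SE) and triple mU6 guide 2 (-0.13 ± 0.32 SE), with exact permutation adjusted p of 0.314, 0.228 and 0.732. Of these, triple mU6-Lkb1 guide 2 had the lowest KT_Cas9 effect of all Lkb1 vectors, 0.19 ± 0.16 (SD). The other 2 had KT_Cas9 effects of 0.89 and 0.74 but an SD near 1 between KTL_Cas9 mice (1.07 and 0.95).

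**Figure D2:**
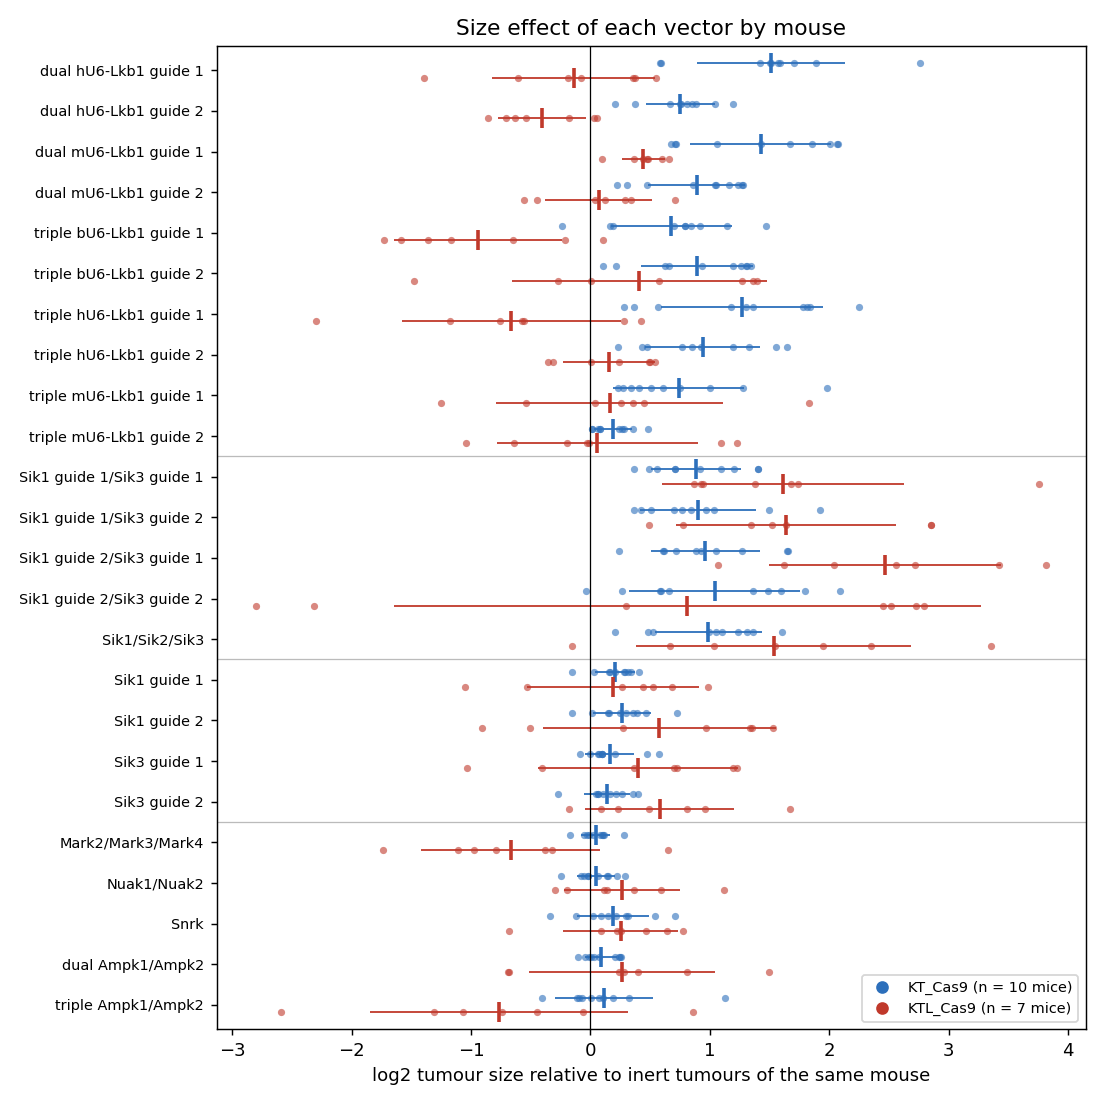
Size effect (log2 tumour size relative to inert tumours of the same mouse) of the 24 vectors, with 1 point per mouse, a vertical bar at the mean and a line of ± 1 SD for KT_Cas9 (n = 10) and KTL_Cas9 (n = 7). The Lkb1 vectors at the top lie right of 0 in KT_Cas9 and around 0 in KTL_Cas9, and Sik1 guide 2/Sik3 guide 1 is farthest right in KTL_Cas9 at a mean of 2.46.

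Vectors against 2 or more Sik genes kept a size effect above 0 in Lkb1-deleted tumours. The Siks are kinases that restrain CREB-regulated transcription coactivators and class IIa histone deacetylases. Their class mean was 2.04, 0.56, 0.45, 3.25, 1.24, 1.48 and 2.26 in KTL_Cas9 mice 2 to 8 and 0.35 to 1.68 (median 0.94) in KT_Cas9 mice. All mice of both groups were above 0 and the groups overlapped. The difference of 0.66 ± 0.40 SE did not pass (exact permutation adjusted p = 0.176), and its sign depended on the size summary, as given with the percentiles. In KTL_Cas9 mice the 5 Sik multi-gene vectors held ranks 1 to 5 of the 24, where in KT_Cas9 mice the first 3 ranks were Lkb1 guide 1 vectors.

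Within the class, Sik1 guide 2/Sik3 guide 1 was 2.56, 1.07, 2.71, 3.81, 1.62, 2.04 and 3.42 in KTL_Cas9 mice 2 to 8 and 0.24 to 1.65 (median 0.90) in KT_Cas9 mice. Of the KTL_Cas9 mice 5 lay above the KT_Cas9 range, and the difference was 1.504 ± 0.39 SE (exact permutation adjusted p = 0.00296). It was 0.77 and not called at a floor of 1000 cells, and it was -0.16, -1.01 (called lower) and -0.87 at floors of 2000, 5000 and 10000 cells and -0.19 on arithmetic means. Sik1 guide 1 with Sik3 guide 1 differed by 0.73 ± 0.40 SE and with Sik3 guide 2 by 0.74 ± 0.38 SE, and Sik1/Sik2/Sik3 by 0.55 ± 0.46 SE. These 3 did not pass (adjusted p = 0.0522, 0.0869 and 0.311 by exact permutation). At a floor of 5000 cells they passed as lower (-1.41, -1.32 and -2.002), and at a floor 3 times lower the first and the second passed as higher (1.24 and 1.17). Sik1 guide 2/Sik3 guide 2 split the KTL_Cas9 mice, with 2.80, 2.45, 2.51, 0.30 and 2.73 in mice 2, 5, 6, 7 and 8 and -2.32 and -2.80 in mice 3 and 4. It had the fewest tumours of the class, 9 to 90 per KTL_Cas9 mouse, and its difference was -0.23 ± 0.96 SE.

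The vectors against a single Sik gene had small effects in both genotypes and 0 of 4 passed, with 1 at an unadjusted p under 0.05. That was Sik3 guide 2, at -0.18 to 1.67 (median 0.49) in KTL_Cas9 and -0.28 to 0.40 (median 0.13) in KT_Cas9 mice (difference 0.44 ± 0.24 SE, exact permutation adjusted p = 0.0799). Sik1 guide 1 differed by -0.02 ± 0.28 SE, Sik1 guide 2 by 0.31 ± 0.38 SE and Sik3 guide 1 by 0.24 ± 0.32 SE. Sik3 guide 2 passed as higher at a floor of 1000 cells (0.90, exact permutation adjusted p = 0.0261) and with Neo1/NT as the sole inert vector (0.51). On summed reads edgeR (1.74) and DESeq2 (1.57) called it higher. Such reads join size and number, and were scaled over all vectors and not to inert tumours. Those tools also called Sik1 guide 2 (0.91 and 0.79) and Sik3 guide 1 (0.99 and 0.80) higher. In summed cells relative to inert tumours Sik3 guide 2, Sik1 guide 2 and Sik3 guide 1 differed by 0.91, 0.22 and 0.25, and none passed. The class difference was 0.24 ± 0.21 SE (exact permutation adjusted p = 0.288).

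Among the other kinases downstream of Lkb1, Mark2/Mark3/Mark4 alone passed in size effect. The Mark kinases phosphorylate microtubule-associated proteins and set cell polarity. Their vector was -1.74, -0.79, -1.11, -0.32, -0.98, -0.38 and 0.65 in KTL_Cas9 mice 2 to 8 and -0.17 to 0.28 (median 0.05) in KT_Cas9 mice. Only mouse 8 was above 0, and the other 6 KTL_Cas9 mice lay below every KT_Cas9 mouse (difference -0.71 ± 0.29 SE, exact permutation adjusted p = 0.0184). The call was lost at floors of 1000 (-0.53), 2000 (-0.24) and 5000 cells (-0.012), on the 95th percentile (-0.52) and on arithmetic means (-0.22). It was also lost when the spread of each genotype was allowed to differ (permutation of the difference over its SE, adjusted p = 0.0698), and the sign turned at a floor of 10000 cells (0.29). Summed reads, scaled over all vectors and not to inert tumours, are another measure and gave 0.75 (edgeR adjusted p = 0.0441). Summed cells relative to inert tumours gave -0.02 (exact permutation adjusted p = 0.941). Triple Ampk1/Ampk2, against genes named for the catalytic subunits of AMPK, had a mean of -0.77 ± 1.08 (SD) in KTL_Cas9 and 0.11 ± 0.41 (SD) in KT_Cas9 mice and did not pass (-0.88 ± 0.43 SE, exact permutation adjusted p = 0.0522). The dual vector against the same genes differed by 0.17 ± 0.30 SE, Nuak1/Nuak2 by 0.22 ± 0.19 SE and Snrk by 0.06 ± 0.20 SE. On summed reads edgeR and DESeq2 called Nuak1/Nuak2 (1.07 and 0.95) and Snrk (1.04 and 0.90) higher. DESeq2 also called dual Ampk1/Ampk2 higher (1.13), which edgeR did not (0.58). In summed cells relative to inert tumours Nuak1/Nuak2, Snrk and dual Ampk1/Ampk2 differed by 0.47, 0.34 and 0.32, and none passed.

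A size effect can sit in the bulk of the tumours or in the largest few, so the effect was taken at each percentile of tumour size, vector and inert tumours at the same percentile. For the Lkb1 vectors the genotypes differed little at the median (-0.07 ± 0.16 SE, exact permutation adjusted p = 0.772 over 28 such tests). The difference was -0.40 at the 75th, -1.33 at the 90th, -1.93 at the 95th and -2.99 at the 99th percentile (exact permutation adjusted p from 0.00144 to 0.0193). In KT_Cas9 mice the Lkb1 effect was 0.13 at the median and 2.53 at the 99th percentile, while in KTL_Cas9 mice it stayed between -0.45 and 0.06. For the Sik multi-gene vectors the difference was positive low in the distribution and negative at the top. It was 0.61 ± 0.29 SE at the median (exact permutation adjusted p = 0.0230) and 0.78 ± 0.31 SE at the 75th percentile (exact permutation adjusted p = 0.0270). It was 0.25 at the 90th and -0.39 at the 95th percentile, neither of which passed, and -1.81 ± 0.59 SE at the 99th (exact permutation adjusted p = 0.0405). Sik multi-gene tumours in KT_Cas9 mice therefore differed from inert by 0.11 at the median and 3.01 at the 99th percentile, and in KTL_Cas9 mice by 0.72 and 1.19. The median inert tumour was 707 to 931 cells in KT_Cas9 mice, close to the floor of 500, and 1704 to 17664 cells in KTL_Cas9 mice, so the percentiles of the genotypes lie at different distances from the floor. The 99th percentile of inert tumours rests on few tumours in KTL_Cas9 mice.

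**Figure D3:**
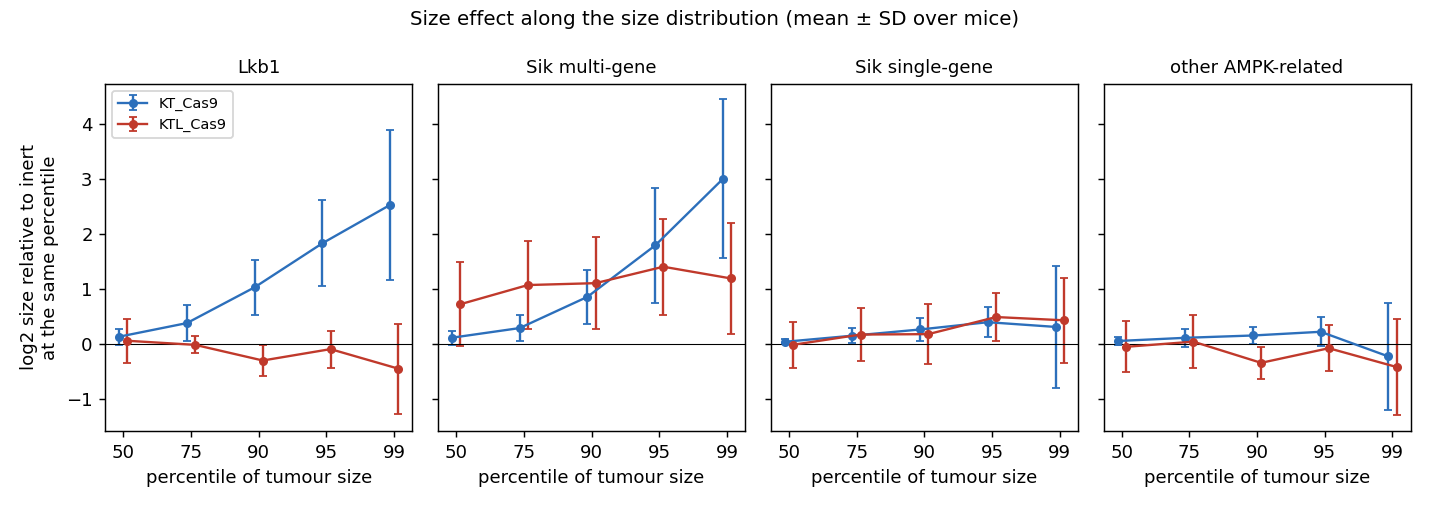
Size effect of each vector class at the 50th to 99th percentile of tumour size (log2 of the vector's percentile over the same percentile of inert tumours), as mean ± SD over mice for KT_Cas9 (n = 10) and KTL_Cas9 (n = 7). The Lkb1 line climbs to 2.53 in KT_Cas9 and stays near 0 in KTL_Cas9, and for the Sik multi-gene vectors the lines cross between the 90th and 95th percentile.

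A further measure set its threshold by each mouse's own inert tumours. All its values are log2 ratios of a vector's share of tumours above the threshold to the same share of inert tumours. The share of a vector's tumours above the 90th percentile of the mouse's inert tumours was lower in KTL_Cas9 than in KT_Cas9 mice for 13 vectors (54.2%) and higher for 1 (4.17%), again Sik1 guide 2/Sik3 guide 1 (0.52, with an adjusted p of 0.0405 by exact permutation). That call was lost in 11 of the 17 fits that leave out 1 mouse (adjusted p up to 0.0966 by exact permutation). The 13 comprised 9 of 10 Lkb1 vectors, Sik1 guide 1, Mark2/Mark3/Mark4, Snrk and triple Ampk1/Ampk2, and the median over all 24 was -0.55. Of these calls, leaving out 1 mouse lost that of Snrk in 12 of 17 fits, of triple mU6-Lkb1 guide 1 in 6, of triple bU6-Lkb1 guide 2 in 5, of triple Ampk1/Ampk2 in 3 and of Sik1 guide 1 in 1. All 8 vectors lower in size effect were among them. The Lkb1 class differed by -0.98 ± 0.17 SE (exact permutation adjusted p = 0.00123), from 0.77 ± 0.35 (SD) in KT_Cas9 to -0.21 ± 0.35 (SD) in KTL_Cas9 mice. Triple hU6-Lkb1 guide 1 (-3.41 to 0.26 in KTL_Cas9, 0.34 to 1.52 in KT_Cas9 mice) and dual hU6-Lkb1 guide 2 (-0.87 to -0.08 against 0.11 to 1.20) had no overlap. The other AMPK-related kinases as a class were lower too, at -0.31 ± 0.34 (SD) against 0.20 ± 0.21 (SD), a difference of -0.51 ± 0.14 SE (exact permutation adjusted p = 0.00384). Their class was 0.13 in KT mice, and at floors of 1000, 2000, 5000 and 10000 cells the difference was -0.44, -0.086, -0.21 and -0.20 and did not pass (exact permutation adjusted p from 0.384 to 0.786). For Sik multi-gene vectors the log2 ratio was 0.79 in KTL_Cas9 and 0.69 in KT_Cas9 mice, a difference of 0.10 ± 0.22 SE (exact permutation adjusted p = 0.642). At 5000 cells it was -0.81 and passed as lower (exact permutation adjusted p = 0.0408), while the Lkb1 class passed at each floor, at -1.33, -1.51, -1.91 and -1.86 above 500 cells. Above the 75th percentile in place of the 90th, 4 vectors were lower and 0 higher.

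Part of these values changed with the size floor. The floor was raised from 500 through 1000, 2000 and 5000 to 10000 cells, and as it rose KT_Cas9 mice fell below 20 inert tumours, leaving 10, 10, 8, 6 and 4 of them with all 7 KTL_Cas9 mice. At 20000 cells 2 KT_Cas9 mice were left, and at 50000 none, so no test was made. The Lkb1 class size difference was -1.01, -1.43, -1.87, -2.16 and -1.79 at the 5 floors, and each passed (exact permutation adjusted p from 0.00123 to 0.0162). The KT_Cas9 effect behind it was 0.93, 1.37, 1.79, 2.10 and 1.74, while the KTL_Cas9 effect moved between -0.09 and -0.06.

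The Sik multi-gene difference turned over with the floor, at 0.66, 0.00, -0.82, -1.52 and -1.37, and passed as negative at 5000 and 10000 cells (exact permutation adjusted p = 0.0131 and 0.0346). Here too the KT_Cas9 effect moved most, from 0.95 at 500 to 2.86 at 5000 cells, and the KTL_Cas9 effect went from 1.61 to 1.34. The single-gene Sik and other AMPK-related classes did not pass at any of the 5 floors (size differences 0.04 to 0.41 and -0.26 to -0.01). By vector, 8, 8, 7, 13 and 10 of 24 were lower and 1, 1, 0, 0 and 0 higher, the 1 being Sik1 guide 2/Sik3 guide 1 at 500 and Sik3 guide 2 at 1000 cells. The KT_Cas9 mice that stayed at higher floors are those with more large inert tumours, and the part of this in the result was not tested.

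**Figure D4:**
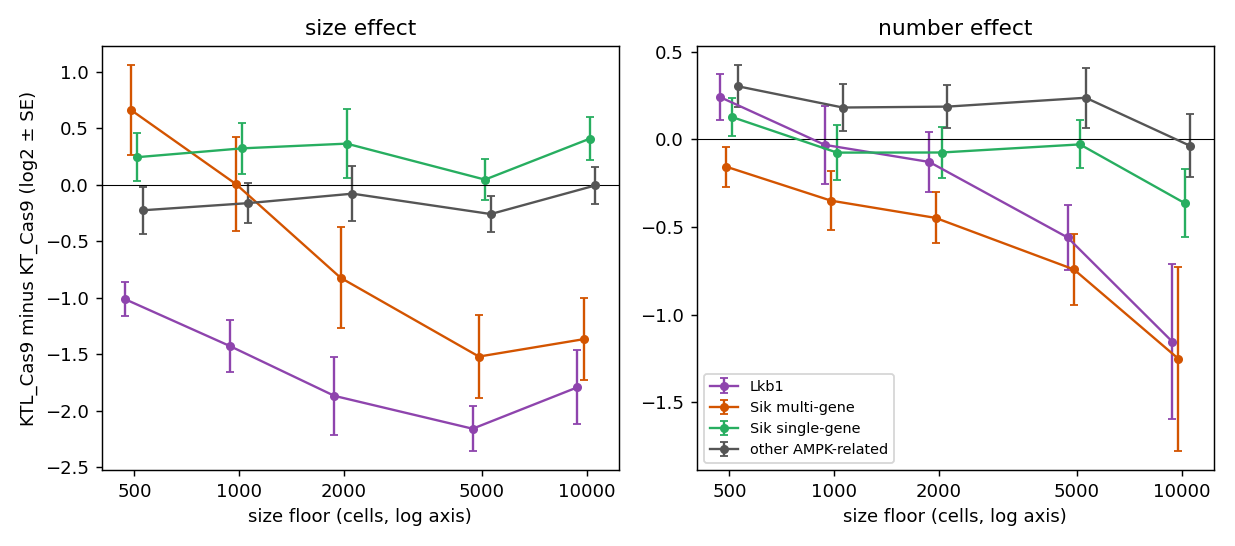
Difference between KTL_Cas9 and KT_Cas9 mice (log2 ± SE) in size effect (left) and number effect (right) for each vector class against the size floor in cells (log axis), with 7 KTL_Cas9 mice at each floor and 10, 10, 8, 6 and 4 KT_Cas9 mice. The Lkb1 size difference is below 0 throughout, the Sik multi-gene size difference goes from 0.66 to -1.37, and the number difference of both classes falls to below -1 at 10000 cells.

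The number effect compares how many tumours a vector gave with how many inert ones its mouse had, as a log2 ratio. Its level reflects each vector's share of the pool. Comparing it between genotypes takes 1 pool to have been used for all mice, which was not tested. At 500 cells 0 of 24 vectors were lower in KTL_Cas9 mice (0%) and 2 were higher (8.33%), with 4 at an unadjusted p under 0.05, none of them lower. edgeR on tumour numbers called 5 lower and 3 higher, and limma 0 and 1. Nuak1/Nuak2, kinases of cell adhesion and stress signalling, stood at -0.50, -0.90, -0.89, -1.12, -1.46, -0.80 and -1.40 in KTL_Cas9 mice 2 to 8 and at -1.71 to -1.06 (median -1.52) in KT_Cas9 mice. Of the KTL_Cas9 mice 4 lay above the KT_Cas9 range (difference 0.47 ± 0.15 SE, exact permutation adjusted p = 0.0469). Triple mU6-Lkb1 guide 2 was -1.61 to -1.13 in KTL_Cas9 and -1.98 to -1.35 in KT_Cas9 mice (difference 0.31 ± 0.09 SE, exact permutation adjusted p = 0.0469). Each of these calls was lost on leaving out any 1 of 13 of the 17 mice (exact permutation adjusted p up to 0.118). The other AMPK-related class was higher by 0.30 ± 0.12 SE (exact permutation adjusted p = 0.0490), a call that was lost on leaving out any 1 of 14 mice. Without KT_Cas9 mouse 2 the count of higher vectors was 10, and without KTL_Cas9 mouse 8 it was 5.

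With higher floors the number effects of Lkb1 and Sik multi-gene vectors went lower in KTL_Cas9 relative to KT_Cas9 mice. The Lkb1 difference was 0.24, -0.03, -0.13, -0.56 and -1.15 at floors of 500 to 10000 cells, and the last 2 passed (exact permutation adjusted p = 0.0306 and 0.0346). The Sik multi-gene difference was -0.16, -0.35, -0.45, -0.74 and -1.25, and the last 3 passed (exact permutation adjusted p = 0.0328, 0.0186 and 0.0346). At 10000 cells 13 of 24 vectors were lower and 0 higher, and 4 KT_Cas9 mice remained. In KTL_Cas9 mice the Lkb1 number effect hardly moved with the floor (-0.90 at 500 and -0.92 at 10000 cells), whereas in KT_Cas9 mice it went from -1.14 to 0.24. The number effect in KT mice at 500 cells was -1.09 for Lkb1 and -1.19 for Sik multi-gene vectors.

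Summed cells join size and number. The burden effect, the log2 ratio of a vector's summed cells to summed inert cells, was lower in KTL_Cas9 mice for 5 vectors (20.8%) and higher for 0 (0%), with 9 at an unadjusted p under 0.05. Of these 9, Sik3 guide 2 alone was higher, by 0.91 (exact permutation adjusted p = 0.0985). All 5 were Lkb1 vectors, namely the 4 dual ones and triple hU6-Lkb1 guide 1, which differed by -2.35 ± 0.56 SE (adjusted p = 0.0151 by exact permutation). The Lkb1 class went from 0.47 ± 0.94 (SD) in KT_Cas9 to -1.04 ± 0.43 (SD) in KTL_Cas9 mice (exact permutation adjusted p = 0.0115), against -1.05 in KT mice without Cas9. Sik multi-gene burden was 1.07 ± 0.77 (SD) and 0.16 ± 0.82 (SD), a difference of -0.91 ± 0.40 SE that did not pass (exact permutation adjusted p = 0.0949), against -1.16 in KT mice. At floors of 1000, 2000, 5000 and 10000 cells it was -1.27, -1.65, -2.06 and -1.99 and passed (exact permutation adjusted p from 0.00699 to 0.0329). A single inert tumour held 64.3% of inert cells in KT_Cas9 mouse 4 and 54.0% in mouse 6, and without mouse 6 the number of vectors lower in burden was 10.

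As a share of all tumour cells, Lkb1 vectors made up 50.2% ± 8.18 (SD, n = 10) in KT_Cas9 and 28.4% ± 4.63 (SD, n = 7) in KTL_Cas9 mice, from 37.9% and 40.5% of tumours. Per mouse these shares of cells ran from 36.9% to 62.9% and from 21.9% to 36.1%, with no overlap. Sik multi-gene vectors made up 33.1% ± 6.77 (SD, n = 10) and 36.5% ± 9.08 (SD, n = 7) of cells from 20.9% and 17.1% of tumours. Tumours of at least 100000 cells were 1.67% of Lkb1-vector tumours in KT_Cas9 and 10.5% in KTL_Cas9 mice, where inert tumours reached 10.3% against 0.153%. For Sik multi-gene vectors the shares were 1.91% and 20.9%, with 11.4% to 31.0% over the KTL_Cas9 mice. Of tumours with at least 1000000 cells in KTL_Cas9 mice, 75 carried Sik multi-gene vectors, 29 Lkb1, 21 single-gene Sik, 15 other AMPK-related and 5 inert vectors. Mouse 4 held many of these, and without it the numbers were 55, 9, 10, 6 and 1. These shares are descriptions and were not tested.

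Next, targeting vectors were contrasted within a mouse. In a contrast of one vector or class minus another the inert tumours cancel, but they do not where 1 vector is set against the sum of 2. The Lkb1 mean minus the Sik multi-gene mean in size was -2.57, -0.51, -0.62, -3.13, -1.36, -1.53 and -2.15 in KTL_Cas9 mice 2 to 8, and -0.36 to 0.33 (median 0.00) in KT_Cas9 mice. Lkb1 vectors were thus below Sik multi-gene vectors in 7 of 7 KTL_Cas9 mice, and the groups did not overlap. The difference was -1.67 ± 0.38 SE (exact permutation adjusted p = 0.000720 over 14 contrast tests), and it was 0.02 in KT mice. The closeness of the classes in KT_Cas9 mice depended on the size floor. At 5000 cells the Lkb1 and Sik multi-gene means were 2.10 and 2.86 in KT_Cas9 and -0.06 and 1.34 in KTL_Cas9 mice. At 10000 cells they were 1.74 and 2.57 in KT_Cas9 and -0.06 and 1.20 in KTL_Cas9 mice. Lkb1 vectors were then below Sik multi-gene vectors in both genotypes on average. In number the same contrast was 0.25, 0.17, 0.29, 0.24, 0.32, 0.24 and 0.24 in KTL_Cas9 mice and -0.45 to 0.23 in KT_Cas9 mice, where mouse 2 gave the 0.23 and the other 9 were at or below 0. The difference was 0.40 ± 0.06 SE (exact permutation adjusted p = 0.00252), with 0.07 to 0.12 in KT mice.

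The order of the 2 Lkb1 guides turned between genotypes in the mean over positions, but not at each position. Guide 1 exceeded guide 2, as a mean over 5 positions, by 0.39 ± 0.27 (SD, n = 10) in KT_Cas9 mice (9 of 10 above 0) and fell below it, at -0.29 ± 0.43 (SD, n = 7), in KTL_Cas9 mice (2 of 7 above 0). The difference was -0.68 ± 0.18 SE (exact permutation adjusted p = 0.00384), and the contrast was -0.10 in KT mice. In KTL_Cas9 mice guide 1 stayed above guide 2 at dual mU6 (0.44 and 0.07), dual hU6 (-0.14 and -0.41) and triple mU6 (0.16 and 0.06). It was below at triple bU6 (-0.94 and 0.41) and triple hU6 (-0.66 and 0.16). In KT_Cas9 mice guide 1 was above guide 2 except at triple bU6 (0.68 and 0.89). The mean of each genotype was not tested against 0. Within triple vectors hU6 minus mU6 was 0.64 ± 0.46 (SD) in KT_Cas9 and -0.36 ± 0.89 (SD) in KTL_Cas9 mice, a difference of -1.01 ± 0.37 SE (exact permutation adjusted p = 0.0242). That call was lost without KTL_Cas9 mouse 2 or 8 (-0.82 and -0.89). Dual minus triple did not pass, at -0.55 ± 0.23 SE for mU6 (exact permutation adjusted p = 0.0690) and -0.05 ± 0.32 SE for hU6 (exact permutation adjusted p = 0.872).

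The size effect of the Sik1/Sik3 dual vectors exceeded the sum of the single-gene effects by 0.76 ± 0.87 (SD, n = 7) in KTL_Cas9 mice. In KT_Cas9 mice the excess was 0.56 ± 0.50 (SD, n = 10), and the difference did not pass (0.20 ± 0.37 SE, exact permutation adjusted p = 0.732). The Sik3 guide was at hU6 in the dual vectors and at mU6 in its single-gene vectors. Promoter position and the joining of guides therefore cannot be told apart in this contrast. In number the contrast was lower in KTL_Cas9 mice, at -0.09, 0.55, 0.40, 0.80, 0.62, 0.12 and 0.94 in mice 2 to 8 against 0.70 to 0.96 in KT_Cas9 mice. Of the KTL_Cas9 mice 5 lay below the KT_Cas9 range (difference -0.40 ± 0.14 SE, exact permutation adjusted p = 0.00504), and the contrast was 0.81 in KT mice. It was -0.20 and not called at a floor of 1000 cells. In size, the triple Sik1/Sik2/Sik3 vector minus Sik1 guide 1/Sik3 guide 1 was -0.08 ± 0.62 (SD, n = 7) in KTL_Cas9 mice. It was 0.10 ± 0.28 (SD, n = 10) in KT_Cas9 mice (difference -0.18 ± 0.25 SE, exact permutation adjusted p = 0.661). The triple vector adds a Sik2 guide and also moves the Sik1 guide from mU6 to bU6, so the contrast does not isolate Sik2.

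**Figure D5:**
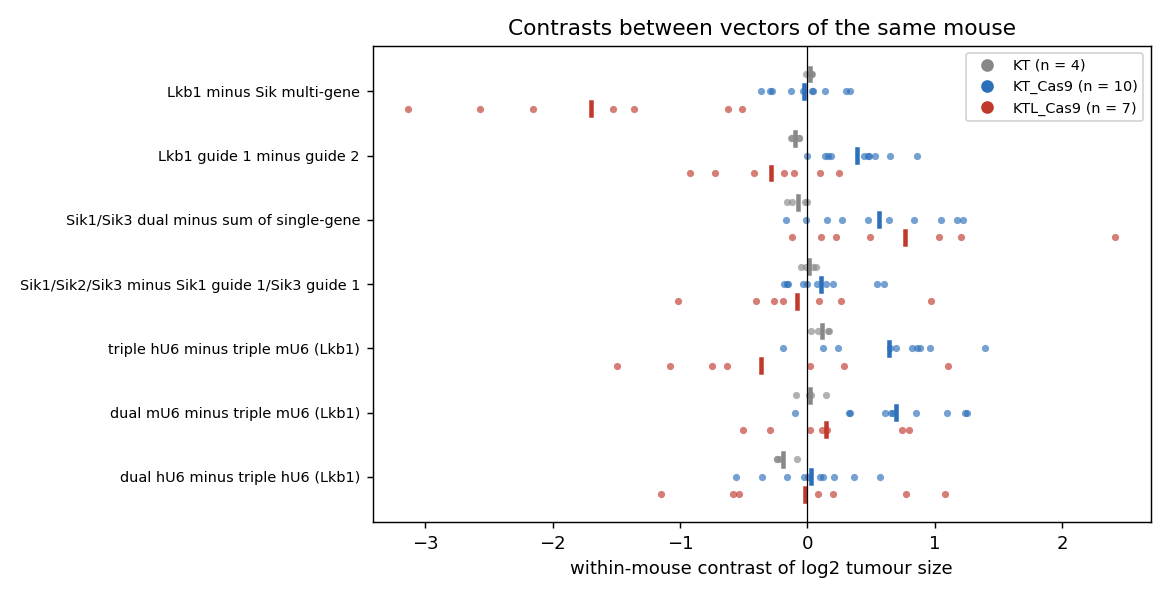
Size contrasts (log2) between targeting vectors of the same mouse for KT (n = 4), KT_Cas9 (n = 10) and KTL_Cas9 (n = 7), with 1 point per mouse and a bar at the mean. Lkb1 minus Sik multi-gene is below 0 in every KTL_Cas9 mouse (-3.13 to -0.51) and between -0.36 and 0.33 in KT_Cas9 mice, while the KT points stay close to 0.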

How the data were processed

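The data were 1 deposited table of tumour barcodes from all lungs. Per the file headers it gives each barcode's read count, an estimated cell number (Cells), a conversion ratio (Convert) and, per mouse, a score (Count.Agg). In the file the deposited Cells signal equals the count times Convert, and Convert equals 500000 divided by Count.Agg, which was taken to be the reads of a cell standard. How the authors processed reads: not given in the sources used here. Of 1019578 lines 913708 were distinct, and 48400 lines with no vector name, holding 1.76% of reads, were left out. The lowest count was 2 reads, and intervals are not given since PCR reads carry no molecular identifiers. A vector needed 5 tumours in a mouse and a comparison 4 mice per group. Effects were log2 ratios to inert tumours of the same mouse. For the share of large tumours 0.5 was added to the number above the threshold and 1 to the total.

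Genotypes were compared by permuting the genotype labels of mice exactly (two-sided), with Benjamini-Hochberg adjustment, the SE being that of a difference of 2 means. All vectors were tested and are named by class, the fullest values being given for those called or not overlapping. edgeR 4.0.16, DESeq2 1.42.0 and limma 3.58.1 in R 4.3.3 were alternatives, with Python 3.11.15, numpy 2.4.6, pandas 2.3.3 and scipy 1.17.1 for the rest. The scripts were tested on simulated data. One allele that the labels give is not reported here. Labels do not say that mice shared a litter or day. The members and lists were chosen with earlier results of these data known. Of the 43 alternative settings, 17 left out 1 mouse each.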

Additional observations from a re-analysis of the deposited data

Results flagged for a closer look

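In 98 groups of 7 or 10 mice checked, 12 (12.2%) held a mouse farther from the others than Dixon's 95% limit allows, where chance marks about 1 in 20 groups. In size effect these were Sik1 guide 1/Sik3 guide 1 in KTL_Cas9 mouse 5 (3.76), Sik3 guide 2 in KT_Cas9 mouse 6 (-0.28) and triple Ampk1/Ampk2 in KT_Cas9 mouse 2 (1.13). In number effect all 9 were KT_Cas9 mouse 2, the shallowest library, and each was the highest value of its group. Its values were -1.72 for Sik1 guide 2/Sik3 guide 2, -0.92 for Snrk, -0.56 for dual hU6-Lkb1 guide 1, 0.80 for dual hU6-Lkb1 guide 2 and 0.47 for dual mU6-Lkb1 guide 2. Among triple Lkb1 vectors they were -0.41 for bU6 guide 1, -0.80 for bU6 guide 2, -0.28 for hU6 guide 2 and -0.78 for mU6 guide 1. All 9 share 1 denominator, the inert tumour number of that mouse, so they are not independent. Its inert tumours were 4.89% of its tumours, against a median of 7.58% in KT_Cas9 mice. Of these 9 vectors 7 carried Lkb1 guides, and the parts of depth and of the inert number in them were not tested.

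Contrasts within a mouse differed between the genotypes by a test of the difference itself in 5 cases. In size these were Lkb1 minus Sik multi-gene (-1.67), Lkb1 guide 1 minus guide 2 (-0.68) and triple hU6 minus mU6 (-1.01). In number these were Lkb1 minus Sik multi-gene (0.40) and the Sik1/Sik3 dual vectors minus the sum of the single-gene ones (-0.40).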

How the results depend on the processing

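No paired analysis was possible because the labels give no replicate numbers shared between genotypes. Under all 17 fits that leave out 1 mouse, the Lkb1 class size difference (-1.08 to -0.94), Lkb1 minus Sik multi-gene in size (-1.87 to -1.43) and number (0.36 to 0.44), and guide 1 minus guide 2 in size (-0.77 to -0.57) kept their direction and their call, with 8 to 9 vectors lower in size. Other ranges over those fits were 1 to 4 vectors higher in size, 0 to 10 higher in number (10 without KT_Cas9 mouse 2, 5 without KTL_Cas9 mouse 8), 0 to 1 higher in share of large tumours, and 5 to 10 lower (10 without KT_Cas9 mouse 6) and 0 to 1 higher in burden. For classes they were 0.19 to 0.33 in Lkb1 number (called without KT_Cas9 mouse 2), 0.23 to 0.37 in other AMPK-related number and -1.13 to -0.71 in Sik multi-gene burden. For contrasts they were -1.25 to -0.82 in triple hU6 minus mU6 size, -0.66 to -0.44 in dual minus triple mU6 size and 0.061 to 0.14 in guide 1 minus guide 2 number. At a floor of 1000 cells 1 vector was higher in number, other AMPK-related number was 0.18, triple hU6 minus mU6 size -0.95 and Sik1/Sik3 dual minus single number -0.20. At 2000 cells 0 vectors were higher in size and 1 in number, Sik1 guide 2/Sik3 guide 1 size was -0.16, Sik multi-gene number -0.45, other AMPK-related number 0.19, dual minus triple mU6 size -1.49 and dual minus single number -0.30. At 5000 cells 13 vectors were lower and 0 higher in size, and 9 lower and 1 higher in number. Size was then -1.41, -1.32, -1.01 and -2.002 for Sik1/Sik3 guides 1/1, 1/2 and 2/1 and Sik1/Sik2/Sik3, all called lower, and -1.52 for their class. Number was -0.75 for dual hU6-Lkb1 guide 2, -0.76, -0.77 and -0.91 for triple bU6 guide 1, bU6 guide 2 and hU6 guide 1, and -0.56, -0.74 and 0.24 for the Lkb1, Sik multi-gene and other AMPK-related classes. At 10000 cells 0 vectors were higher in size, which was 0.29 for Mark2/Mark3/Mark4, -0.87 for Sik1 guide 2/Sik3 guide 1, -1.70 for Sik1/Sik2/Sik3 and -1.37 for the Sik multi-gene class. In number 13 were lower and 0 higher, at -1.25, -1.25, -1.22 and -1.10 for dual hU6 guides 1 and 2 and mU6 guides 1 and 2, and -1.44, -1.35, -1.64, -1.12 and -0.042 for triple bU6 guides 1 and 2, hU6 guide 1 and mU6 guides 1 and 2. The Lkb1, Sik multi-gene and other AMPK-related classes were then -1.15, -1.25 and -0.038. With a floor 3 times lower, 5 vectors were lower and 3 higher in size and 15 higher in number, dual mU6-Lkb1 guide 1 size was 0.41, Sik multi-gene size 1.03 and Lkb1 number 0.36. On median size 3 vectors were lower and 5 higher, dual hU6-Lkb1 guide 1, mU6 guide 1 and mU6 guide 2 were 0.23, 0.69 (called higher) and 0.19, and the Lkb1 and Sik multi-gene classes -0.075 and 0.61. On the 90th percentile 13 were lower, Snrk was -0.47 and the other AMPK-related class -0.50. On the 95th percentile and the arithmetic mean 0 were higher, with Sik1 guide 2/Sik3 guide 1 at -0.19 on the mean. On the 75th and 99th percentile, chosen after seeing the data, Sik multi-gene size was 0.78 and -1.81. With Neo1/NT as the sole inert vector, or without barcodes seen in more than 1 mouse, 3 vectors were higher in size. With Neo1/NT/Neo2 alone 0 were higher in number, and other AMPK-related number was 0.11. With 10 or more reads 1 was higher in number and that class was 0.26, and by studentised permutation 0 and 0.30. Above the inert 75th percentile 4 vectors were lower and 0 higher in share, with Snrk at 0.033. DESeq2 and edgeR called 5 vectors lower in tumour number. On summed reads, which join size and number and were not taken relative to inert tumours, they called 6 higher, with Mark2/Mark3/Mark4 at 0.57 and 0.75. edgeR with inert tumours as library size, chosen after seeing the data, called 4 higher in number and limma 1. Also chosen after seeing the data, mice with 100 or more inert tumours (3 KTL_Cas9) gave 0 vectors higher in number and 0.21 for other AMPK-related number. Without KT_Cas9 mice of under 200 inert tumours 10 were higher in number and Lkb1 number was 0.38. The cause of these changes was not tested. At the median KT_Cas9 mice had fewer reads and smaller inert tumours, close to the floor, and KTL_Cas9 mice had fewer inert tumours. The part of depth, inert size and inert number in these changes was not tested.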
